A study of Mus musculus with 17 samples.

Results

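The mitochondrially encoded genes are the 37 genes carried by the mitochondrial chromosome, chosen by the prefix mt- of their symbols. They make up 37 of the 41015 annotated genes with a row in the deposited tables, whether or not a read was counted. They comprise 13 genes for respiratory chain proteins, 2 for ribosomal RNAs (rRNA) and 22 for transfer RNAs (tRNA). RNA was sequenced from brain of mice on the C57BL/6 background, in 6 libraries from mice with a transgene that overexpresses HAR1A, a long noncoding RNA, and in 11 libraries from normal control mice. The labels name neither the promoter of the transgene, nor the founder line, nor the age, sex, brain region or time of sampling. They do not say that the libraries came from separate animals, so every p-value measures the spread between these libraries. HAR1A counts were not analysed here and give no check of the group labels.

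The library names give a flow cell and a lane. All 6 transgene libraries and 3 control libraries (7, 8 and 11) were on lane 4. A further 6 control libraries were on lane 8, control 4 was on lane 2, and control 6 was on lane 6 of another flow cell. Counts assigned to a transcript ran from 17067407 to 22642441 per library. Markers of brain regions differed between the groups. The summed level of 12 Hox genes, markers of hindbrain and cord, lay at 16 to 306 counts per-million (CPM) in the controls. In the transgene libraries it was 0.0464 to 0.634 CPM, and 4 of the 12 had no count there. The summed level of 9 telencephalic transcription factors lay at 13.9 to 247 CPM in the controls and at 505 to 726 CPM with the transgene. In cerebellar granule cell markers, control 7 stood apart from the other controls with 120 CPM and transgene 3 from the other transgene libraries with 510 CPM. Control 7 lay within the transgene range, which began at 98.9 CPM. Control 11, also on lane 4, was the next lowest control at 917 CPM, and the highest control had 2765 CPM. The tissue that was sampled, the group and the lane therefore cannot be told apart in full, and values within lane 4 are given beside the main results.

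The mitochondrial chromosome is a small circle that is transcribed from both strands into long precursors. The heavy-strand precursor holds both rRNAs, most tRNAs and all coding genes but mt-Nd6, and tRNAs that lie between the other genes are cut out to release them. The proteins are core subunits of complexes I, III, IV and V of the respiratory chain, which neurons rely on for most of their ATP, and they are made on ribosomes built around the rRNAs mt-Rnr1 and mt-Rnr2.

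Position on the chromosome bears on what a count can hold, because the genes are packed with hardly a base between them. In the GENCODE M21 annotation of build GRCm38 (mm10), 28 of the 37 genes lay on the + strand and 9 on the - strand, the latter being mt-Nd6 and 8 tRNAs. Each member had 1 transcript and 1 row of counts. Several members share bases, and these stretches are printed because a read over them can fit both genes. The shared bases of mt-Atp8 and mt-Atp6 run over 43 bases at chrM:7927-7969, + strand. Those of mt-Nd4l and mt-Nd4 are the 7 capitals in the stretch at chrM:10155-10185, + strand. Those of mt-Nd5 and mt-Nd6, which lie on opposite strands, are the 14 bases at chrM:13552-13565, written on the strand of mt-Nd5, and a read there fits both only if strand was not used in counting, which the labels do not say. The tRNA genes mt-Tv, at chrM:1025-1093 on the + strand, and mt-Tp, at chrM:15356-15422 on the - strand, are printed whole with the anticodon in capitals, from the GENCODE M21 transcripts. mt-Tv lies directly between the 2 rRNA genes, and mt-Tp is the only tRNA gene that was counted in every library.
mt-Atp8 and mt-Atp6: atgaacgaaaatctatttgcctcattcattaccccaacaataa
mt-Nd4l and mt-Nd4: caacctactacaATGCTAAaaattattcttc
mt-Nd5 and mt-Nd6: ttaatctcgagtaa
mt-Tv: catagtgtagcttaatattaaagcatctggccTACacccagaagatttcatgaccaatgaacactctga
mt-Tp: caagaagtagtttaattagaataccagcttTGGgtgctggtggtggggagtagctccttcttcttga

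The members together held 10.3% ± 0.666 (SD, n = 6) of the assigned counts with the transgene and 10.6% ± 1.09 (SD, n = 11) in the controls. The lowest, median and highest transgene libraries were at 9.35%, 10.1% and 11.2%, and the lowest, median and highest controls at 8.71%, 10.6% and 12.3%. The transgene range thus fell inside that of the controls. The 3 lane-4 controls had 11.2% ± 1.01 (SD), from 10.1% to 12.2%. These shares are of counts given to a transcript. All reads here means these counts plus the closing rows, almost wholly those for reads without a feature and for ambiguous reads. It is therefore not the number of reads sequenced. The closing row for ambiguous reads held 42.1% of all reads with the transgene and 41.1% in the controls. Of all reads, the members held 5.19% ± 0.365 with the transgene and 5.28% ± 0.606 in the controls. A sum over the members was described and not tested. In brain tissue, such a share cannot tell the number of mitochondria-rich cells from the mitochondrial RNA in each cell.

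**Figure D1:**
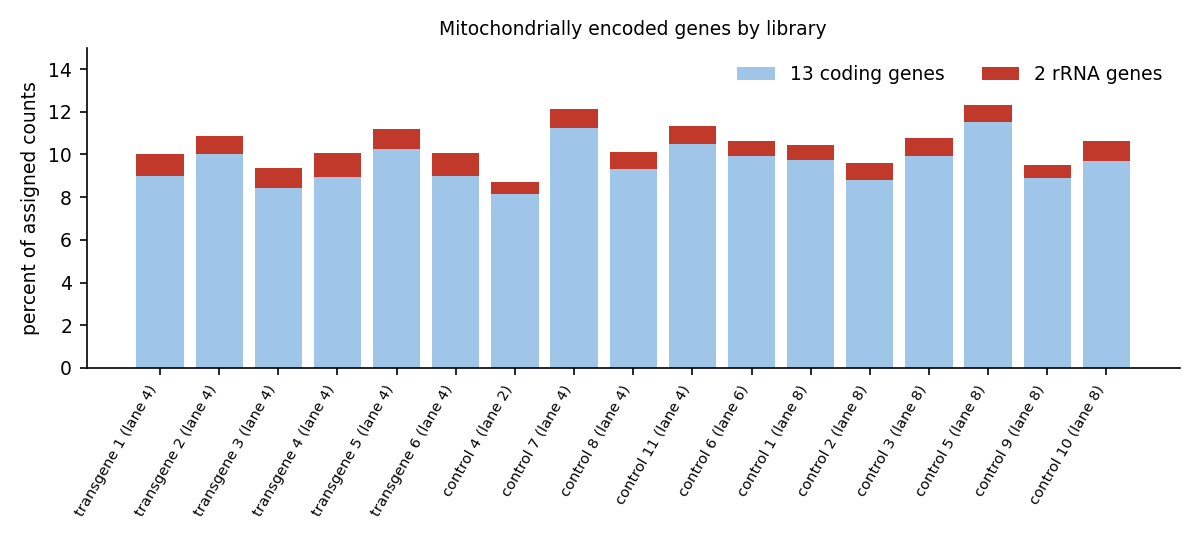
Share of the assigned counts (vertical axis, percent) held by the 13 coding genes (pale blue) and the 2 rRNA genes (red) in each of the 17 libraries, with the lane in brackets. The totals run from 8.71% in control 4 to 12.3% in control 5, with the 6 transgene libraries between 9.35% and 11.2%.

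Both rRNA genes were higher with the transgene, and no coding gene was called in either direction. mt-Rnr1 (chrM:70-1024) encodes the RNA of the small ribosomal subunit. Its level was 3833, 4250 and 4839 CPM in the lowest, median and highest transgene libraries, and 2068, 2939 and 3639 CPM in the lowest, median and highest controls. Every transgene library was above every control, the highest control being control 7. Means were 4298 ± 431 CPM (SD, n = 6) and 2908 ± 544 CPM (SD, n = 11), a log2 fold change of 0.56 ± 0.12 (SE) with an adjusted p of 0.000625 in edgeR's quasi-likelihood test with Benjamini-Hochberg adjustment over 19136 features.

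mt-Rnr2 (chrM:1094-2675) encodes the RNA of the large subunit. Its level was 5300, 6096 and 7338 CPM in the lowest, median and highest transgene libraries, against 3232, 4809 and 5740 CPM in the controls. The groups overlapped, with controls 7 and 10 above the lowest of the transgene libraries. The log2 fold change was 0.41 ± 0.11 (SE), with an adjusted p of 0.00661 in edgeR. Fitted with a term for lane and flow cell, edgeR gave mt-Rnr1 a log2 fold change of 0.40 (adjusted p = 0.0481) and mt-Rnr2 one of 0.26 (adjusted p = 0.183), which ended the call of mt-Rnr2.

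Of the 16 members that passed the filter on low counts, edgeR thus called 2 higher and 0 lower, and DESeq2 and limma-voom called the same number in each direction. Among all features tested, 23% were called higher and 24.4% lower, so the members' share of calls did not exceed the background. With library size as the only scaling, which moved the median log2 fold change of all features from -0.05 to -0.16, 3510 features were called higher and 6361 lower against 4410 and 4668 with TMM scaling. Both rRNA genes stayed called higher under that scaling, at 0.45 and 0.30. mt-Rnr1 was the only one of the 16 whose groups did not overlap in log2 CPM, which held for 14.9% of all features.

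**Figure D2:**
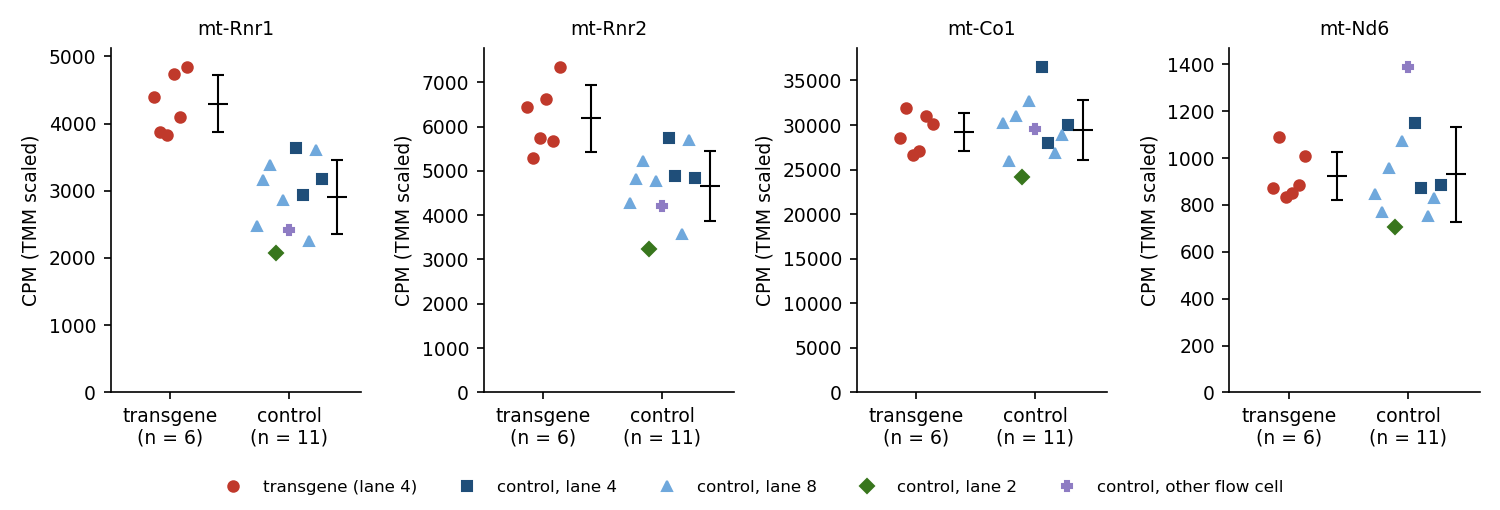
Level (vertical axes, TMM-scaled CPM, from 0) of the rRNA genes mt-Rnr1 and mt-Rnr2 and of the coding genes mt-Co1 and mt-Nd6 in each library, by group, with symbols for lane and flow cell and a bar for mean ± SD. mt-Rnr1 shows the 6 transgene libraries above all 11 controls, mt-Rnr2 and mt-Co1 overlap, and for mt-Nd6 control 6 is highest at 1388 CPM.

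Within lane 4 the difference in rRNA was smaller. mt-Rnr1 stood at 2939 CPM in control 8, 3183 CPM in control 11 and 3639 CPM in control 7, all below the lowest transgene library at 3833 CPM. Its log2 fold change was 0.38 ± 0.13 (SE), with an adjusted p of 0.0498 in edgeR over 19261 features. This call was lost when any 1 library other than control 7 was left out, and adjusted p ran from 0.00796 to 0.151 over 15 alternatives, of which 5 kept the call. mt-Rnr2 stood at 4841, 4884 and 5740 CPM in controls 11, 8 and 7, the last within the transgene range. It was not called, at 0.24 ± 0.14 (SE) with an adjusted p of 0.227 in edgeR.

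In that lane, 1 of the 16 members was called higher and 0 lower, against 13.6% of all features called higher and 12% called lower. The groups did not overlap for mt-Rnr1 alone, and for 25.3% of all features. Without control 7 and transgene 3, the libraries that stood apart in granule cell markers, the log2 fold change of mt-Rnr1 was 0.50 within lane 4 (adjusted p = 0.0358 in edgeR) and 0.65 over all libraries (adjusted p = 0.00019 in edgeR).

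Marker genes of brain regions and of several cell types differed between the same groups. Over all libraries, where 23% of all features were called higher and 24.4% lower, edgeR called 12 of 12 Hox genes and 7 of 7 granule cell genes lower, 9 of 9 telencephalic factors higher, 5 of 6 oligodendrocyte genes and 4 of 6 astrocyte genes lower, and 3 of 5 red cell genes lower. The 6 astrocyte genes summed to 1365 to 1583 CPM with the transgene and 2278 to 2847 CPM in the controls, without overlap. The 6 oligodendrocyte genes summed to 1134 to 2560 CPM and 1365 to 5621 CPM. For the 6 neuronal genes, 2 of which were called higher and 0 lower, the sums overlapped at 3805 to 5241 CPM and 3713 to 5800 CPM. Of 3 microglial genes that passed the filter 2 were called higher, and of 5 choroid plexus genes 1 and of 4 endothelial genes 2 were called lower, counts too small to set against those shares. Within lane 4, 11 of 11 Hox genes, 4 of 7 granule cell genes, 5 of 6 oligodendrocyte genes, 4 of 6 astrocyte genes and 4 of 5 red cell genes were called lower and 9 of 9 telencephalic factors higher. Of 6 neuronal genes 2 were called higher and 1 lower in that lane, and of 4 microglial genes 1 was called higher. Of 4 endothelial genes 2 were called lower, and of 5 choroid plexus genes 0 were called. The endothelial sums did not overlap there, at 160 to 243 CPM with the transgene and 254 to 292 CPM in the controls. Among all features in lane 4, 13.6% were called higher and 12% lower. No marker outside the Hox list was at 0 in all transgene libraries. The part of these differences in the rRNA result was not tested.

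The balance among mitochondrial counts shifted with the rRNAs. They made up 9.72% ± 1.33 (SD, n = 6) of the members' counts in the transgene libraries, from 7.84% to 11.1%, and 7.33% ± 0.939 (SD, n = 11) in the controls, from 6.28% to 9.02%. The ranges overlapped over all libraries, while the 3 lane-4 controls, at 7.33% to 7.83%, lay just below the lowest transgene library. The ratio of mt-Rnr2 to mt-Rnr1 counts was lower in the transgene libraries, at 1.44 ± 0.0642 (SD) and 1.37 to 1.52, than in the controls, at 1.61 ± 0.0793 (SD) with a range of 1.52 to 1.74. The ranges met without overlapping, since the highest transgene value was 1.516 and the lowest control value 1.520. The lane-4 controls lay at 1.52 to 1.66. These ratios were described, without a test.

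**Figure D3:**
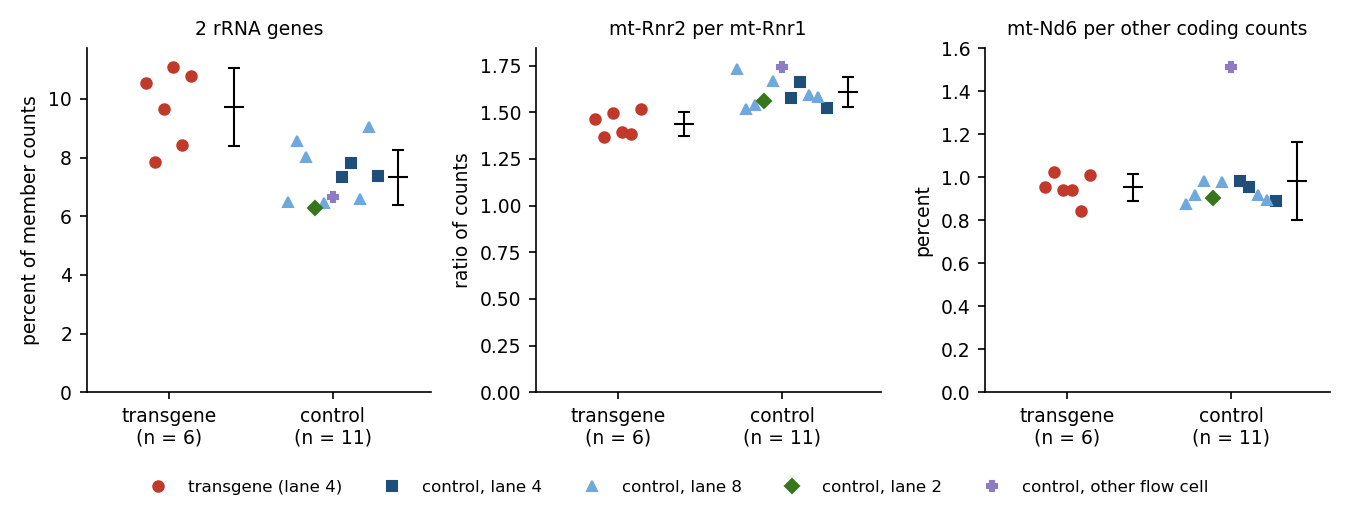
Percent of the members' counts in the 2 rRNA genes (left), counts of mt-Rnr2 per count of mt-Rnr1 (middle) and mt-Nd6 as a percent of the other 12 coding genes' counts (right), per library, with a bar for mean ± SD; axes start at 0. The rRNA share averages 9.72% with the transgene and 7.33% in the controls, and the mt-Rnr2 to mt-Rnr1 ratio 1.44 and 1.61.

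None of the 13 coding genes was called by edgeR, DESeq2 or limma-voom in either comparison, and none had an unadjusted p under 0.05. The log2 fold changes ran from -0.01 to 0.11 over all libraries and from -0.16 to -0.04 within lane 4, where the median of all features was -0.04. The 95% intervals in edgeR stayed within -0.27 and 0.41 over all libraries and within -0.49 and 0.27 within lane 4.

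Complex I takes electrons from NADH and holds 7 of the coded subunits. mt-Nd1 stood at 7410, 8163 and 9401 CPM in the lowest, median and highest transgene libraries and at 6661, 8084 and 10748 CPM in the controls. mt-Nd5, the longest coding member at 1824 bases, had 5384, 5688 and 6444 CPM against 4506, 5533 and 6784 CPM. In both the transgene range fell inside that of the controls. mt-Nd3 varied most among the coding genes, with a coefficient of variation of 22.7% over the 17 libraries, from 827 CPM in control 6 to 1810 CPM in control 5. The 7 complex I genes took 31.4% ± 0.522 of coding counts with the transgene and 31.2% ± 1.19 in the controls.

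mt-Nd6, the complex I subunit encoded on the other strand, had 834, 879 and 1092 CPM with the transgene and 705, 871 and 1388 CPM in the controls (lowest, median and highest). Its log2 fold change was -0.01 ± 0.13 (SE), with an adjusted p of 0.956 in edgeR, and 0.06 without control 6 (adjusted p = 0.65). Within lane 4 it was -0.09 ± 0.13 (SE), with an adjusted p of 0.667 in edgeR. As a percent of the other coding genes' counts it was 1.51% in control 6, the library of the other flow cell, and at most 1.02% in each of the other 16 libraries. A flow cell and a library cannot be told apart here, since control 6 was alone on its flow cell. Whether strand was used in counting is not stated. Counts of mt-Nd6, and of mt-Tp on the same strand, may therefore include reads from the opposite strand over their whole length.

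mt-Cytb, the complex III subunit, had 10126, 10810 and 12068 CPM in the lowest, median and highest transgene libraries and 8561, 9856 and 12203 CPM in the controls. Its log2 fold change over all libraries, 0.11 ± 0.09 (SE), was the highest of the coding genes (adjusted p = 0.345 in edgeR), and within lane 4 it was -0.05 ± 0.13 (SE). Of coding counts it held 11.2% ± 0.131 with the transgene and 10.7% ± 0.536 in the controls, with overlap.

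The 3 subunits of complex IV, the terminal oxidase, held 50.3% ± 0.578 of coding counts with the transgene and 51.0% ± 1.15 in the controls. mt-Co1, its catalytic core, had 26614, 29304 and 31931 CPM in the lowest, median and highest transgene libraries and 24180, 29549 and 36486 CPM in the controls, the highest being control 7. mt-Co2 ranged from 10366 to 12417 CPM and from 8536 to 13818 CPM, and mt-Co3 from 7953 to 9680 CPM and from 6344 to 11393 CPM. All 3 had the transgene range inside the control range. The same held for mt-Atp6, a subunit of the ATP synthase (complex V), with 5926 to 8043 CPM against 4799 to 9122 CPM. mt-Atp8, the other coded subunit of complex V, ranged from 149 to 199.5 CPM against 118 to 197 CPM, with transgene 6 the highest library. The pair held 7.09% ± 0.334 and 7.13% ± 0.481 of coding counts.

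**Figure D4:**
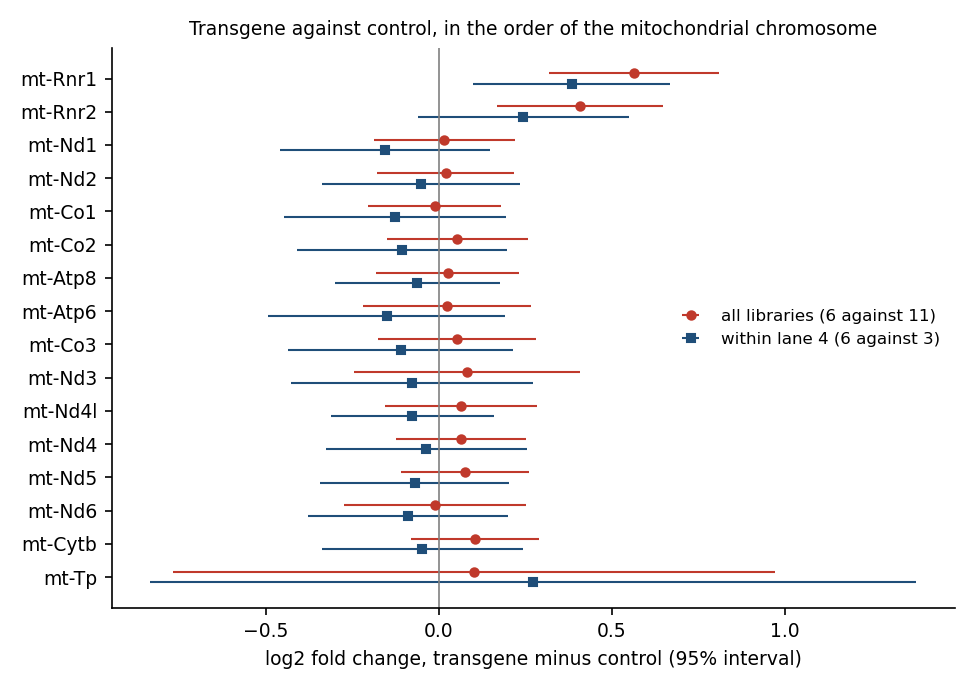
Log2 fold change of transgene minus control (horizontal axis) with its 95% interval from edgeR for the 16 members that passed the filter, in chromosome order, over all libraries (red circles, 6 against 11) and within lane 4 (blue squares, 6 against 3). The intervals of mt-Rnr1 lie above 0 in both comparisons and that of mt-Rnr2 over all libraries only, while those of the 13 coding genes and mt-Tp include 0.

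The tRNA genes gave almost no counts. Of 22, 16 were at 0 in all 17 libraries and 5 had 1 to 6 counts over all libraries together, namely mt-Ts1 with 6 and mt-Tl1, mt-Tw, mt-Tc and mt-Te with 1 each. A count of 0 allows up to 3 counts per library, which covers counting error only. These genes are 59 to 75 bases long. Each of the 16 and the 5 either starts the annotated sequence or lies within 32 bases of a neighbour on both sides, and most abut it. mt-Tp, the tRNA for proline printed above, has a neighbour on its left side, while no member is annotated beyond its right end. It had 143 to 2988 counts per library, with 7.60, 59.1 and 75.2 CPM in the lowest, median and highest transgene libraries and 19.7, 42.7 and 142 CPM in the controls. Transgene 1 was lowest and control 2 highest, and the coefficient of variation over all libraries was 62.9%, against 9.89% for mt-Co1. Its log2 fold change was 0.10 ± 0.42 (SE), with an adjusted p of 0.861 in edgeR, and it moved to 0.43 without control 2 (adjusted p = 0.324) and to 0.36 without transgene 1 (adjusted p = 0.439). Within lane 4 it was 0.27 ± 0.50 (SE), with an adjusted p of 0.736 in edgeR.

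Per length, the members differed by far more than the groups did. Averaged over the 17 libraries, mt-Co1 was highest at 19005 CPM per kb, ahead of mt-Co2 at 16136 CPM per kb in 17 of 17 libraries, and mt-Co2 was ahead of mt-Co3 (10860 CPM per kb) in 17 of 17. mt-Co3 exceeded mt-Atp6 (9863 CPM per kb) in 16 libraries, mt-Atp6 exceeded mt-Cytb (9178 CPM per kb) in 13 and mt-Cytb exceeded mt-Nd1 (8669 CPM per kb) in 15. mt-Nd4 at 6426 CPM per kb and mt-Nd2 at 4488 CPM per kb came next, in that order in every library.

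In the lower part of the order, some neighbours lay close. mt-Rnr1 (3559 CPM per kb) led mt-Nd3 (3431 CPM per kb) in 8 of 17 libraries, mt-Nd3 led mt-Rnr2 (3286 CPM per kb) in 10, and mt-Rnr2 led mt-Nd5 (3093 CPM per kb) in 9. mt-Nd5 led mt-Nd6 (1788 CPM per kb) in 17 of 17, and mt-Nd6 led mt-Nd4l (1756 CPM per kb) in 7. The lowest coding gene, mt-Atp8, had 805 CPM per kb, below mt-Nd4l in 17 of 17 libraries, and mt-Tp averaged 722 CPM per kb. mt-Atp8 is 204 bases long and shares 43 with mt-Atp6, and mt-Nd4l is 297 bases long and shares 7 with mt-Nd4. Reads over shared bases may be missing from these counts, so the low places of short members may not be their RNA levels. This was not tested. The ranges over libraries overlapped for every neighbouring pair except mt-Nd4l and mt-Atp8. Per length, mt-Rnr1 was below 8 coding genes in the mean over the 17 libraries. The nearest of them, mt-Nd2, led it in 13 libraries. On average mt-Rnr1 and mt-Nd2 were at 4501 and 4528 CPM per kb with the transgene. In the controls they were at 3044.5 and 4466 CPM per kb. Whether RNA was selected by poly(A) tail or rRNA was removed is not given in the sources used here, so the rRNA level is one of these libraries and not of the tissue.

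**Figure D5:**
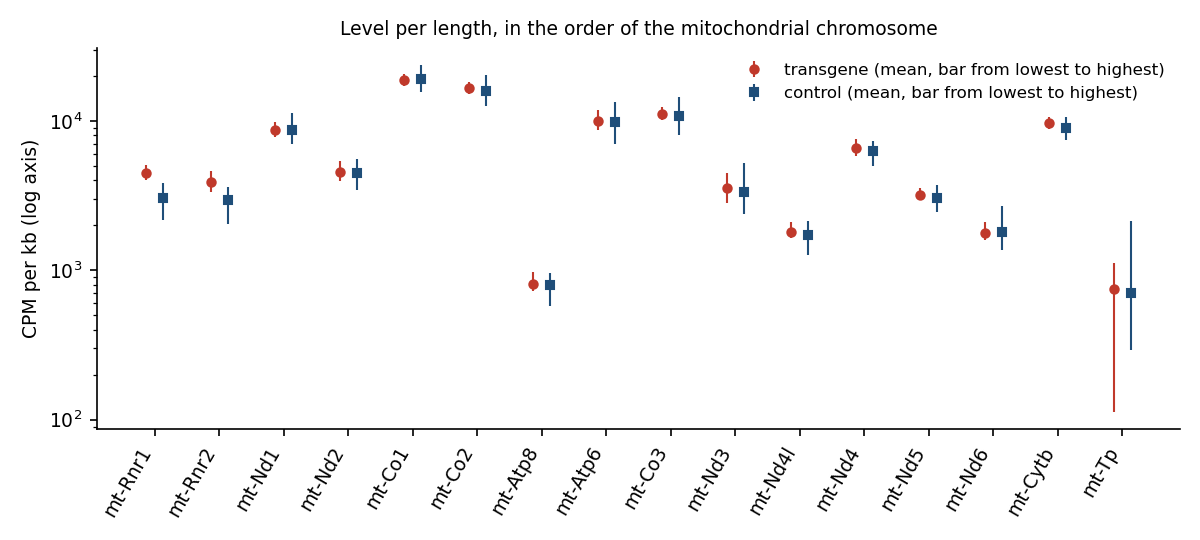
Level per length (vertical axis, CPM per kb, log axis) of the 16 members that passed the filter, in chromosome order, as the mean of the 6 transgene libraries (red circles) and of the 11 controls (blue squares), with bars from the lowest to the highest library. mt-Co1 is highest at 19005 CPM per kb over all libraries, mt-Atp8 and mt-Tp are lowest at 805 and 722, and the group means sit apart most for mt-Rnr1. Levels are not corrected for reads over bases that members share.

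Copies of mitochondrial sequence in the nuclear genome bear on some members. In GENCODE M21, 11 annotated pseudogenes matched the mitochondrial transcripts at 95% identity or more over at least 80% of their length. Of these, 7 lie side by side on chromosome 1 (chr1:24611535-24616197, - strand) and are 99.7% to 100% identical to it. As annotated, they cover 99.1% to 100% of mt-Co2, mt-Atp6, mt-Co3, mt-Nd3 and mt-Nd4l, 63.6% of mt-Nd4, 31.3% of mt-Co1 and 21.1% of mt-Atp8. Chromosome 1 sequence between or beyond the annotated pseudogenes was not compared, so these shares are lower bounds. The rest of mt-Atp8 falls between the stretches matched by neighbouring pseudogenes. The counts used here held no row named for any of the 11, so reads placed on these copies cannot be seen. The levels of the members that the 7 cover are uncertain by whatever reads were placed on the copies or dropped. mt-Rnr1, mt-Rnr2, mt-Nd1, mt-Nd2, mt-Nd5, mt-Nd6, mt-Cytb and mt-Tp matched none of the 7. The other 4, on chromosomes 2 and 13, were 95.2% to 97.6% identical, across the whole span of mt-Co1 and of mt-Co2 and over parts of mt-Nd2 and mt-Nd5.

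Most coding genes varied together from library to library, though not every pair. Across the 11 controls the median Pearson r over the 78 pairs of coding genes was 0.73, and across the 6 transgene libraries 0.66, in log2 CPM. The lowest r of a pair was -0.21 in the controls and -0.46 with the transgene. The rRNAs followed each other with r = 0.97 and 0.93. mt-Rnr1 had a median r with the 13 coding genes of 0.58 in the controls and -0.14 with the transgene, and mt-Tp one of -0.44 and 0.22. These are descriptions over few libraries that share depth and scaling, and members share 1 chromosome.

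A difference between lanes was not detectable in the members among controls. Between 6 controls on lane 8 and 3 on lane 4, edgeR called 0 of 16 members, with 0 at an unadjusted p under 0.05, and DESeq2 and limma-voom called 0 members as well. Of all 19384 features, 0% were called higher and 0% lower by edgeR, with 1543 at an unadjusted p under 0.05. Without control 8 the same test called 71 features higher and 17 lower, and still 0 members. The log2 difference of mt-Rnr1 was -0.13 ± 0.15 (SE), lane 8 being lower, and that of mt-Rnr2 -0.12 ± 0.14 (SE).

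Nuclear genes that make, process and use mitochondrial RNA were measured in 8 lists of 135 genes, of which 130 passed the filter. Over all libraries edgeR called 9 higher and 39 lower. Their median log2 fold change was -0.11, against -0.05 for all features, of which 23% were called higher and 24.4% lower. Within lane 4 it called 2 higher and 23 lower, with medians of -0.19 and -0.04, where 13.6% of all features were called higher and 12% lower. The count of each list is to be read against these shares. Several of these genes have more than 1 transcript row, and reads in the closing row for ambiguous reads may be missing from their counts, whereas each member has 1 row.

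For transcription of mitochondrial DNA, 1 of 11 genes was lower and 0 higher, namely Polrmt, the mitochondrial RNA polymerase, at -0.39 ± 0.13 (SE; adjusted p = 0.0175 in edgeR), and 0 were called within lane 4. For processing, stability and decay of the RNA, 5 of 20 were lower, a share near that of all features, and 0 higher. Among them were Fastkd2, a factor of mitochondrial ribosome assembly that binds mt-Rnr2, at -0.46 ± 0.12 (SE), with 23.2 against 31.8 CPM, and Slirp, which stabilises mitochondrial mRNAs, at -0.49 ± 0.18 (SE). Fastkd2 was the 1 gene of this list called within lane 4, at -0.46 ± 0.14 (SE; adjusted p = 0.0334 in edgeR).

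Of 9 replication and packaging genes 2 were higher and 5 lower, and within lane 4 1 was higher and 2 lower. Polg2, the accessory subunit of the mitochondrial DNA polymerase, was at -0.94 ± 0.15 (SE), and Dna2, a nuclease and helicase, at -0.85 ± 0.15 (SE), both with no overlap between groups but at mean levels of only 2.42 to 7.12 CPM. Of 23 mitoribosomal proteins 2 were higher and 3 lower (0 and 1 within lane 4), with a median of -0.03, from -0.31 for Mrps22 to 0.26 for Mrps12 among those called. Of 14 translation factors and synthesis regulators 1 was higher, Mtrf1, a release factor, at 0.31 ± 0.09 (SE), and 2 lower, Cox14 and the elongation factor Gfm1, at -0.34 ± 0.08 and -0.31 ± 0.07 (SE). Within lane 4, 0 of these were higher and 3 lower.

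Of 25 nuclear partners in complexes I, III, IV and V, 14 were lower and 0 higher over all libraries, with a median of -0.24, and 11 lower and 0 higher within lane 4, with a median of -0.35. Ndufb2, an accessory subunit of complex I, was at -0.73 ± 0.09 (SE), with 23.0 against 38.2 CPM and no overlap. Cox4i1, a subunit of complex IV, was at -0.69 ± 0.15 (SE), at mean levels of only 5.03 against 8.14 CPM and with overlap. The 13 mitochondrially encoded subunits of the same complexes had 0 calls, and the difference between the 2 sets was not tested.

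Of 10 regulators of mitochondrial biogenesis 1 was higher and 5 lower, and within lane 4 1 was higher and 3 lower. Lower over all libraries were the nuclear receptors Esrrg, at -1.29 ± 0.19 (SE), and Esrra, at -0.42 ± 0.07 (SE) with 159 against 213 CPM and no overlap. The coactivator Ppargc1b was lower there too, at -0.85 ± 0.18 (SE). Within lane 4 the gene called higher was Sirt1, at 2.74 ± 0.32 (SE; adjusted p = 0.00024 in edgeR). Its mean levels were only 1.96 CPM with the transgene and 0.286 CPM in the controls, scaled within that lane. Those called lower in lane 4 were Esrrg, Esrra and Ppargc1a, and not Ppargc1b. Of 18 genes for outer membrane, matrix and import content, 3 were higher and 4 lower, no larger a share than among all features, and within lane 4 0 were higher and 2 lower. Tomm70a and Tomm20, receptors of protein import, were higher at 0.52 ± 0.09 and 0.42 ± 0.09 (SE), and Mfn1, which fuses outer membranes, was lower at -0.66 ± 0.07 (SE) with no overlap.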

How the data were processed

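The authors deposited 1 file of whole-number counts per transcript for each of 17 brain libraries, on build mm10 per the submitters' processing notes. No aligner, counter, strand setting or annotation is given in the sources used here. Library sizes leave out the 5 closing rows of each file. Among 68517 rows, 64505 had Ensembl transcript names, of which 64380 matched GENCODE M21 (62415 with the same version). Rows were summed per gene, giving 41015 genes and 45147 features. Groups came from the labels. Counts were tested with edgeR 4.0.16 (TMM scaling, filterByExpr, quasi-likelihood F test, Benjamini-Hochberg over all features tested, threshold 0.05) under R 4.3.3, over all libraries, within lane 4, and between lanes 8 and 4 among controls. The code was tested on simulated data. DESeq2 1.42.0, limma-voom (limma 3.58.1), other library sizes, no filter, lane as a factor and leaving out each library were alternatives. Pseudogenes were matched with blastn 2.17.0. CPM values printed are from the scaling over all libraries. All 37 members are accounted for. Of each pathway list, up to 4 called genes with the largest change and a mean log2 CPM of at least 0 could be named. The members, lists and markers were chosen with earlier results of these data known.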

Additional observations from a re-analysis of the deposited data

Results flagged for a closer look

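Within the 6 transgene libraries and within the 6 controls on lane 8, 66 sets of values were searched for a library far from the others. In all, 2 were found, a share no larger than the about 1 in 20 that chance gives. Among the 6 controls on lane 8, mt-Tp had 142 CPM in control 2 and at most 44.0 CPM in the other 5. Among the 6 transgene libraries, mt-Co1 made up 31.0% of the coding counts in transgene 1 and at most 29.8% in the other 5. The causes were not tested.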

How the results depend on the processing

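mt-Rnr1 was called higher over all libraries under each of 24 alternatives, at 0.40 to 0.65 (log2), and mt-Rnr2 under 23. With a term for lane and flow cell, 1 member rather than 2 was called higher, and 2871 features were called higher and 3016 lower. Within lane 4, 0 members were called with library sizes that leave out mitochondrial genes (mt-Rnr1 adjusted p = 0.055 in edgeR) or with no filter (0.0608), and leaving out 1 library gave 0 to 1. Between lanes among controls, DESeq2 called 1 feature higher; leaving out 1 library gave 0 to 71 higher and 0 to 17 lower, the calls coming without control 8. The 13 coding genes were not called in any of 312, 195 and 182 values over the 3 comparisons (smallest adjusted p 0.108, 0.166 and 0.364); their uncalled fold changes changed sign in 54, 19 and 10. Over all reads, meaning assigned counts plus closing rows, the members' share was 5.19% (transgene), 5.28% (control) and 5.68% (lane-4 controls). Coding genes alone held 9.37% in the transgene libraries with rRNA left out of the total. The cause was not tested; the other denominators differ by construction. No paired analysis was possible because replicate numbers follow accession order and pair no libraries across groups. Few controls on lane 4, unstated library selection and unplaced reads limit these results.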
